A study of Homo sapiens with 6 samples.

Results

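The genes described here encode adhesion proteins of adherens junctions and desmosomes, from a list that leaves out E-cadherin, N-cadherin and beta-catenin. Listed are 6 cadherins, 7 catenins, 4 plakophilins, 3 plakins, 6 desmosomal cadherins, 4 nectins with afadin, vinculin and 1 protocadherin. They were chosen by name, as the features of the array whose annotated gene was a listed symbol or a synonym of it. All 33 were found among the 23593 genes of the array, on 64 features, and each gene was represented by its brightest feature, judged by mean log2 over the 6 arrays. The nectin genes carry their current names, NECTIN1 to NECTIN4 (PVRL1 to PVRL4 on the array), as does AFDN (MLLT4). The cells were HCC-LM3, a human hepatocellular carcinoma line known for its metastatic growth in mice, infected for a week with a lentivirus. The group shNon holds 3 samples of cells given a control shRNA. The group shASPP2 holds 3 samples of cells given an shRNA against ASPP2, the product of TP53BP2. The sample titles do not say whether the 3 samples of a group were separate cultures. Both groups thus carry a lentivirus and an shRNA, all cells are of 1 line, and the labels do not say that clones were picked. RNA of each sample was hybridised to its own array in 1 colour.

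Cadherins bind their like on the neighbouring cell. At adherens junctions their tails hold p120-catenin and beta-catenin or plakoglobin, and alpha-catenin and vinculin connect these to actin. In desmosomes, desmogleins and desmocollins are tied to keratin filaments through plakoglobin, plakophilins and desmoplakin. Nectins are immunoglobulin-like adhesion molecules that reach actin through afadin. In liver, such junctions hold hepatocytes together along the bile canaliculi, and ASPP2 has been placed at junctions with polarity proteins.

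The arrays were first checked as a whole. TP53BP2 had an intensity of 332, 488 and 452 in shNon and 228, 216 and 147 in shASPP2, a log2 difference of -1.11 (SE 0.249, limma adjusted p = 0.204). Median intensity was 111 to 122 per array, and 2508 random-sequence probes, which match no transcript, gave 30.4 to 33.3. A level above 2 times that signal is called above background here. Arrays correlated at r = 0.955 to 0.972 within shNon and 0.983 to 0.985 within shASPP2, with the lowest mean correlation for shNon array 3. Replicates of the 33 genes also spread more in shNon (median SD 0.38, log2) than in shASPP2 (0.21). Of 10 hepatocyte markers, 4 were above background on all arrays (ALB, TF, HNF4A and APOH). ALB was dim at 86.5 ± 5.74 in shNon (SD, n = 3), and AFP, TTR, APOA1, APOB, SERPINA1 and AHSG were above background on at most 2 of 6 arrays each.

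No junction gene passed the test between the groups. In limma with Benjamini-Hochberg adjustment over all genes, 0 of 33 had an adjusted p under 0.05, where 0.102% of all genes did (0.0424% higher and 0.0593% lower in shASPP2). At an unadjusted p under 0.05 there were 4, VCL, DSC2 and NECTIN4 higher and CTNNA3 lower in shASPP2, beside a share of 11.5% of all genes. That is 12.1% of the junction genes, close to the share of all genes. With a variance that may depend on the level (trend and robust options), 1 of 33 passed, VCL, where 2.14% of all genes did. The arrays of the groups did not overlap for 9 of 33, 6 higher and 3 lower in shASPP2, where 18.8% of all genes had no overlap (9.3% higher and 9.52% lower). Among the 22 with a group mean above background, 5 were higher and 2 lower with no overlap. Of 14657 such genes on the whole array, 1846 were higher and 1691 lower with no overlap. With 3 arrays a group, an adjusted p above the threshold does not show that a gene had the same level in both. The median log2 difference over the 33 genes was 0.08, against 0.01 over all genes, with 19 positive and 14 negative values.

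**Figure D1:**
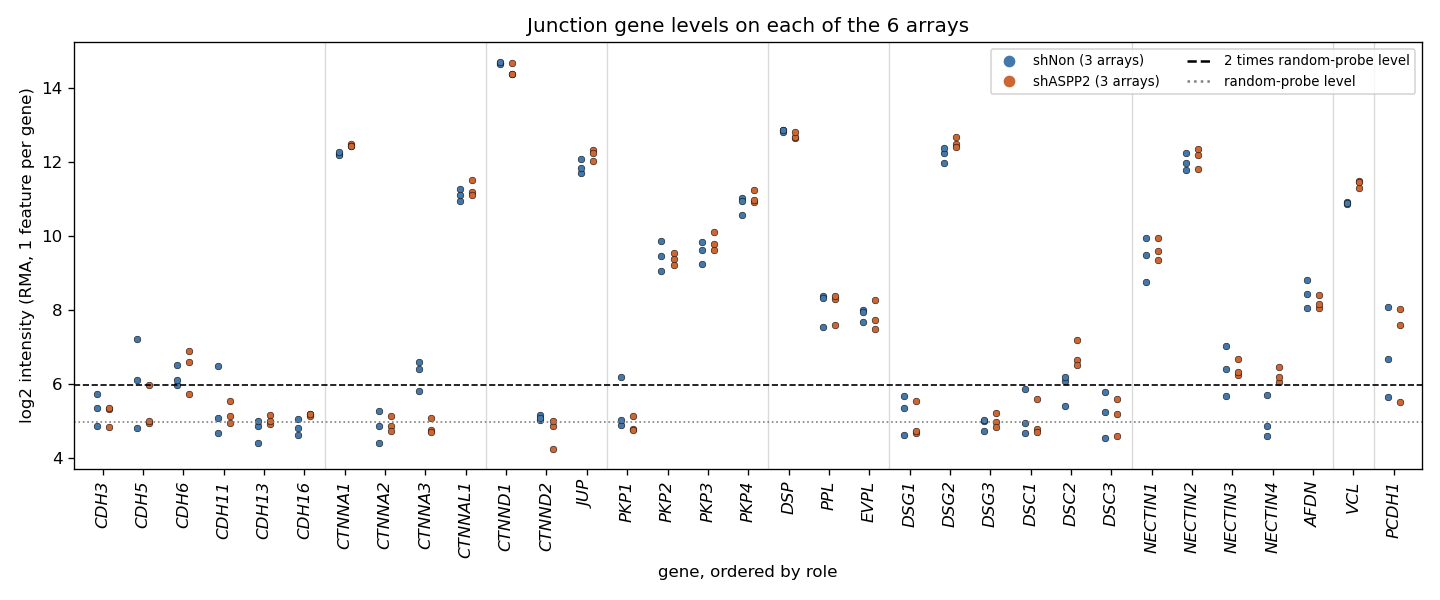
Log2 intensity of the 33 junction genes (x axis, ordered by role, grey lines between roles) on each of 3 shNon and 3 shASPP2 arrays (points), with the random-probe level (dotted) and 2 times it (dashed). In all, 15 genes lay above the dashed line on all 6 arrays and 9 on none, and the groups' points lay close together for most genes.

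The levels separated the junction genes into a well-measured and a dim part. Above background on all 6 arrays were 15: CTNNA1, CTNNAL1, CTNND1, JUP, PKP2, PKP3, PKP4, DSP, PPL, EVPL, DSG2, NECTIN1, NECTIN2, AFDN and VCL. Their log2 differences lay between -0.23 and 0.53, and their 95% intervals, not adjusted for the number of genes, between -0.79 and 1.01. A further 9 were above background on no array: CDH3, CDH13, CDH16, CTNNA2, CTNND2, DSG1, DSG3, DSC1 and DSC3. For these, values of either group cannot be told from unspecific signal. The other 9 (CDH5, CDH6, CDH11, CTNNA3, PKP1, DSC2, NECTIN3, NECTIN4 and PCDH1) crossed the line on 1 to 5 arrays.

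**Figure D2:**
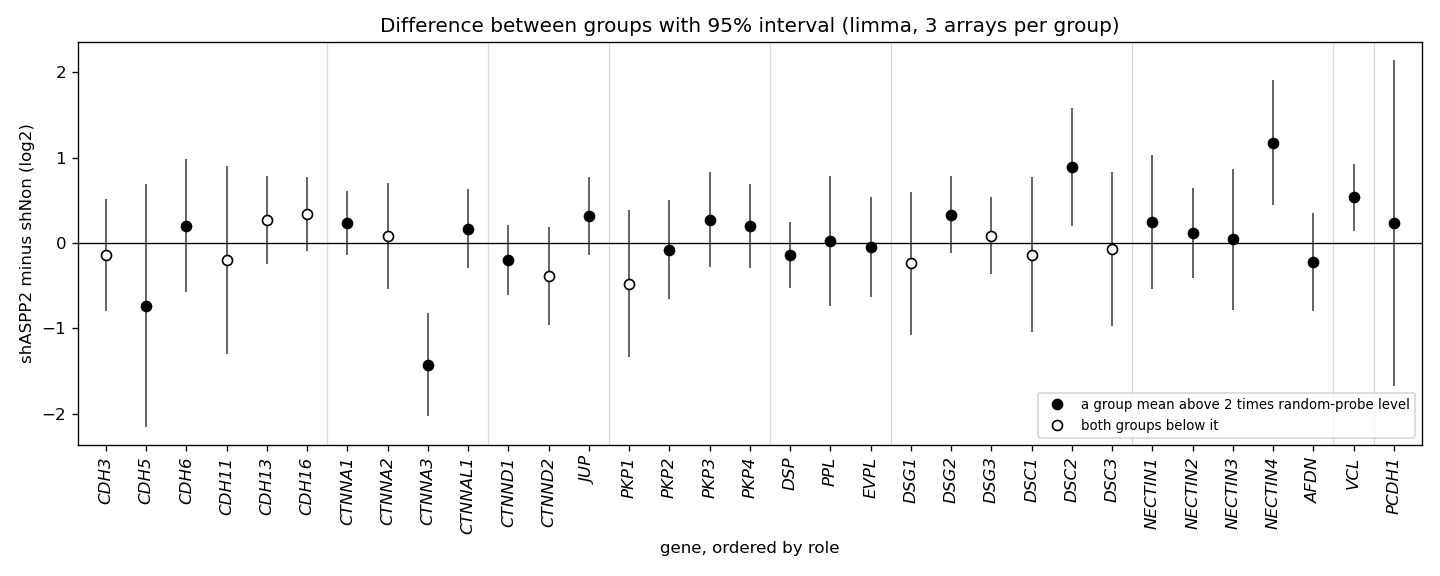
Log2 difference shASPP2 minus shNon of the 33 junction genes (points) with limma's 95% interval (bars), ordered by role; filled points had at least 1 group mean above 2 times the random-probe level. The intervals of CTNNA3 (below 0) and of DSC2, NECTIN4 and VCL (above 0) leave out 0, and PCDH1 has the widest interval.

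The regulatory sequence at the gene starts is shown for the 4 genes with an unadjusted p under 0.05 and for DSG2. DSG2 had the sign of DSC2 and lies in the same gene cluster, with DSC1, DSG1, DSG4 and DSG3 between them. RefSeq promoters (GRCh38.p14, 250 bases before to 50 after the gene start) were at hand for 21 of the 33 genes. These were searched on both strands for CACCTG, the E-box bound by Snail-family repressors of E-cadherin, for CATTCC, bound by TEAD factors, for TGACTCA or TGAGTCA, bound by AP-1, and for the CArG box of SRF. The motifs were chosen with the values known. The E-box stood in 7 of 21 (33.3%) and in 20.6% of all 27305 promoters of that length, with DSC2, DSG2, DSP, DSG1, NECTIN4, AFDN and PCDH1 among the 7. CATTCC stood in 1 of 21, VCL, and in 14.0% of all, the AP-1 motif in 0 of 21 and 4.92% of all, and the CArG box in 0 of 21 and 1.28% of all. The 7 genes with the E-box include higher, lower and unmeasured ones, and a match is a description of letters, not of binding. Each sequence below holds the 250 bases before the gene start, 5′ to 3′ on the gene's strand, with matches in capitals. They are VCL at chr10:73997866-73998115 (plus strand), DSC2 at chr18:31102422-31102671 (minus strand), DSG2 at chr18:31497927-31498176 (plus strand), NECTIN4 at chr1:161089559-161089808 (minus strand) and CTNNA3 at chr10:67696196-67696445 (minus strand), the last with no match. On the minus strand a transcript starts at its highest position. For CTNNA3 that is 69095392 on the feature used and 69125933 on the longest transcript (hg18). The CTNNA3 sequence may thus not lie at the start of the transcript that the feature used measures.
VCL: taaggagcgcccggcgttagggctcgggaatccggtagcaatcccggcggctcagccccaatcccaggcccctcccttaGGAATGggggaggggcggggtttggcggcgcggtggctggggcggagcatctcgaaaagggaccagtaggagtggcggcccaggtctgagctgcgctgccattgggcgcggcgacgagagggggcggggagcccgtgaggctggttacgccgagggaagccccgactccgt
DSC2: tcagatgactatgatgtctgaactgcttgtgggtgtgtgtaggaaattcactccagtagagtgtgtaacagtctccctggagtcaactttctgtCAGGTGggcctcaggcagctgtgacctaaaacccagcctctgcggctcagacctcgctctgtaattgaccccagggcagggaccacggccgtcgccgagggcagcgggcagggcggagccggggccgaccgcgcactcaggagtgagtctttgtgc
DSG2: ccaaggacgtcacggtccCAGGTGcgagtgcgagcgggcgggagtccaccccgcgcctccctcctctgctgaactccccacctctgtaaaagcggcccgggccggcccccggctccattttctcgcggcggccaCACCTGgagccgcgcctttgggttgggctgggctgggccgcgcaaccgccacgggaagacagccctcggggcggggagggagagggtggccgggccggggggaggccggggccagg
NECTIN4: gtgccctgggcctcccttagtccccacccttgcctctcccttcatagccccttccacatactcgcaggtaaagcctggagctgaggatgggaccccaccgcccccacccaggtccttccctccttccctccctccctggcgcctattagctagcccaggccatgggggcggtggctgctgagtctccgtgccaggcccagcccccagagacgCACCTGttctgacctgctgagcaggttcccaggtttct
CTNNA3: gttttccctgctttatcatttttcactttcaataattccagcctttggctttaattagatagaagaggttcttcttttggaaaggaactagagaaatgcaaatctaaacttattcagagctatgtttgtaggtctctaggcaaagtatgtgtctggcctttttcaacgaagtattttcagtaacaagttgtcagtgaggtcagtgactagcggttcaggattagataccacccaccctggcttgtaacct

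Vinculin, which binds alpha-catenin under tension and recruits actin, was the best-measured difference. VCL (chromosome 10, 75427890 to 75549775, hg18) had an intensity of 1949, 1865 and 1904 on the shNon arrays and 2531, 2904 and 2856 on the shASPP2 arrays. Every shASPP2 array was above every shNon array, and the replicates of shNon were within 1.04-fold of each other. The means were 1906 ± 41.8 and 2764 ± 203 (SD, n = 3). An exact permutation over the 6 arrays gave a two-sided p of 0.1, below which this design cannot go. The log2 difference was 0.53 (SE 0.160, 95% interval 0.16 to 0.91), with a limma adjusted p of 0.309. With trend and robust variance the limma adjusted p was 0.0380, and over all 17 alternatives it was between 0.0380 and 0.697. The second VCL feature, above background on all arrays too, gave 0.45 log2. Its promoter, among the sequences shown, held GGAATG at position -171.

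The alpha-catenins link the cadherin-catenin complex to actin. CTNNA1, the epithelial alpha-catenin, had 4753, 4705 and 4975 in shNon and 5772, 5567 and 5612 in shASPP2. The groups did not overlap, but the difference was small, at 0.23 log2 (SE 0.154, limma adjusted p = 0.608), and its second feature gave 0.25. CTNNAL1, an alpha-catenin-like protein, had 0.17 log2 with overlapping groups. CTNNA2, the neural form, was at the random-probe level, with 21.1 to 38.6 on all 6 arrays.

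CTNNA3, the alpha-catenin best known from heart and testis, was lower in shASPP2 on 2 of its 3 features, at dim levels. On the feature used (chromosome 10, 67950195 to 69095392, hg18) it had 85.0, 56.1 and 96.1 in shNon and 27.0, 26.1 and 33.8 in shASPP2. The shASPP2 arrays lay around the random-probe level and only 2 shNon arrays above background, so the size of the difference is uncertain. The log2 difference on the deposited intensities was -1.42 (SE 0.249, 95% interval -2.01 to -0.83), with a limma adjusted p of 0.129, between 0.0568 and 0.488 over 16 alternatives. It was -2.43 with the random-probe level subtracted and -0.70 as the mean of all features. Its 3 features did not point one way: a feature of a shorter transcript had -1.10 (44.9 ± 7.16 in shNon, 21.0 ± 3.87 in shASPP2; SD, n = 3), and that of the longest transcript 0.44 (30.3 ± 2.82 and 41.9 ± 11.3). Neither of these was above background on any array. As the arrays measure bulk RNA, fewer cells with a transcript and less of it per cell cannot be told apart here or in the other results.

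The p120 catenins and plakoglobin bind cadherin tails. CTNND1, which encodes p120-catenin and keeps cadherins at the membrane, had 26225.5, 25996.5 and 26996 in shNon and 26151, 21590.9 and 21590.9 in shASPP2. Arrays 2 and 3 of shASPP2 list the same value to the last digit, as 9 of 45033 features do between these arrays. The log2 difference was -0.20 (SE 0.168, limma adjusted p = 0.687), and the other feature gave 0.06, so no direction was shown. JUP, plakoglobin, which serves adherens junctions and desmosomes alike, had 3372, 4370.2 and 3703 in shNon and 4181, 5195 and 4859 in shASPP2. The groups overlapped, at 0.32 log2 (SE 0.187, limma adjusted p = 0.565), and its other features gave 0.30 and 0.08. CTNND2, the neural p120 relative, was not above background on any array.

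Of the cadherins in the list, none was above background on all arrays. They are P-cadherin (CDH3), VE-cadherin of endothelium (CDH5), the kidney cadherins CDH6 and CDH16, CDH11 of mesenchymal cells, and the membrane-anchored CDH13. CDH6 came nearest, with 91.9, 63.5 and 69.6 in shNon and 53.3, 119 and 97.2 in shASPP2, overlapping groups at 0.20 log2 (SE 0.326, limma adjusted p = 0.843). CDH16 had the smallest p of the group, at 33.2, 24.5 and 28.1 against 36.5, 34.9 and 36.2. Both groups of CDH16 lay at the random-probe level, so that its 0.34 log2 (limma adjusted p = 0.527) is not a measure of expression, and the second feature had -0.11. Of 17 cadherins outside the list, 4 were above background on all arrays: CDH1, CDH2, CDH17 and CDH24. CDH2, N-cadherin, had means of 1685 in shNon and 2154 in shASPP2 (0.35 log2, limma adjusted p = 0.501). The log2 differences of CDH1, CDH17 and CDH24 were negative.

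CDH5 was uneven between replicates, with 68.8, 28.0 and 149 in shNon and 30.7, 63.2 and 32.3 in shASPP2. Its log2 difference was -0.73 (SE 0.600, limma adjusted p = 0.674), and leaving out single arrays gave values from -1.35 (without shNon array 2) to -0.14 (without shNon array 3). Its other features, below background on every array, had 0.15 and -0.26. Of 10 endothelial markers, 2 were above background on all arrays, PECAM1 and ESAM, and VWF, KDR, TEK, CLDN5, TIE1 and ERG were on none. The summed intensity of the 10 was 2935 to 3134 in shNon and 2733 to 3281 in shASPP2. Its 2 bright members had opposite signs: PECAM1 had 1866 ± 84.7 in shNon and 968 ± 134 in shASPP2 (-0.96 log2), and ESAM 866 ± 46.9 and 1658 ± 279 (0.93 log2; SD, n = 3). Neither passed in limma (adjusted p = 0.157 and 0.181), and both did with trend and robust variance (0.00125 and 0.00262), both with no overlap between groups. Their part in the CDH5 values was not tested.

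CDH3 lies beside CDH1, the E-cadherin gene, on chromosome 16, with 38.3 kilobases between the end of CDH3 at 67290443 and the start of CDH1 at 67328755 (hg18). CDH1 had 540.4, 614 and 686 in shNon and 235, 195 and 169 in shASPP2, a log2 difference of -1.62 with a limma adjusted p of 0.0518, between 0.00037 and 0.458 over 17 alternatives and under the threshold in 8 of them. CDH3 had 53.5, 29.0 and 40.7 in shNon and 40.3, 28.8 and 40.7 in shASPP2, overlapping groups near the random-probe level at -0.14 log2 (SE 0.274). A change of CDH3 in step with its neighbour could thus not be measured.

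Among the listed desmosomal cadherins, only DSG2 and DSC2, the pair known from simple epithelia, were above background on any array. Both were higher in shASPP2 with no overlap. The listed desmosomal cadherin genes form a cluster on chromosome 18, from 26825028 to 27380855 (hg18), over 555.8 kilobases that also hold DSG4. DSG2 had 4885, 4069.7 and 5339 in shNon and 6628, 5815 and 5486 in shASPP2, 0.33 log2 (SE 0.186, limma adjusted p = 0.544). The second DSG2 feature gave 0.31, so its features point the same way at a size that the test could not resolve.

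DSC2, the desmocollin partner of desmoglein 2, was dim. It had 67.7, 73.2 and 42.2 in shNon and 145, 100.5 and 90.8 in shASPP2. The log2 difference was 0.89 (SE 0.286, 95% interval 0.21 to 1.56), with a limma adjusted p of 0.331, between 0.148 and 0.624 over 16 alternatives, and 1.74 log2 with the random-probe level subtracted. The second DSC2 feature, dimmer still, agreed in direction, with 39.8 ± 7.16 in shNon and 79.8 ± 14.6 in shASPP2, 1.00 log2 (SD, n = 3). The shNon level lay near background on both features, so the size is uncertain. The skin desmosomal cadherins DSG1, DSG3, DSC1 and DSC3 were above background on no array, and their log2 differences were between -0.24 and 0.09.

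Plakins and plakophilins join these cadherins to keratins. DSP, desmoplakin, had 7576, 7278 and 7539 in shNon and 6521, 6592 and 7221 in shASPP2. The groups did not overlap, and the difference of -0.14 log2 (SE 0.157, limma adjusted p = 0.767) was opposite in sign to that of DSG2, JUP and DSC2. The cornified envelope plakins PPL and EVPL had 0.02 and -0.04 log2, and each took the other sign when any of 3 arrays was left out. PKP2, PKP3 and PKP4 were above background on all arrays, with overlapping groups at -0.08, 0.27 and 0.20 log2. PKP1, the plakophilin of stratified epithelium, had the smallest p of the 4 at 29.5, 73.3 and 32.8 against 27.7, 27.0 and 35.2, with a log2 difference of -0.47 (SE 0.358, limma adjusted p = 0.647). Only shNon array 2 was above background for PKP1, and without it the difference was -0.06.

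Squamous epithelium, a tissue rich in desmosomes, was read beside these genes from its markers. The summed intensity of 10 such markers was 9230.1 to 12139.6 in shNon and 17384 to 18551 in shASPP2. The sum rested on SFN and KRT1, the 2 above background on all arrays, and KRT1 was uneven within shNon, from 650.3 to 3022. The basal keratins KRT5 and KRT14 had means of 70.3 and 80.1 in shNon and 79.0 and 63.0 in shASPP2. None of the 10 passed the limma test over all genes, with a lowest adjusted p of 0.282 for SFN, which passed with trend and robust variance (0.00489). Their part in the desmosomal values was not tested.

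Nectins start cell contacts, and afadin ties them to actin. NECTIN2 had 3573, 4899 and 4013 in shNon and 3649, 4666 and 5298 in shASPP2, overlapping groups at 0.12 log2 (SE 0.218, limma adjusted p = 0.863). NECTIN1 and NECTIN3 overlapped too, at 0.25 and 0.04 log2. AFDN had -0.23 log2 (SE 0.239, limma adjusted p = 0.752), and its 4 features lay between -0.37 and 0.01.

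NECTIN4, an embryonic nectin that reappears in several carcinomas, was above background in shASPP2 only, and dim there. It had 52.3, 29.1 and 24.3 in shNon and 66.5, 87.4 and 73.2 in shASPP2. No shNon array was above background and all 3 shASPP2 arrays were, so the size of the difference is uncertain. The log2 difference on the deposited intensities was 1.18 (SE 0.306, 95% interval 0.45 to 1.90), with a limma adjusted p of 0.252, between 0.134 and 0.618 over 16 alternatives. The second feature, of a shorter transcript, had the other sign, with 48.9 ± 12.4 in shNon and 35.3 ± 1.78 in shASPP2 (SD, n = 3), -0.44 log2, below background throughout. The brighter feature gave 2.04 log2 with the random-probe level subtracted and the mean of both features 0.37, so the direction rests on the brighter feature.

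NECTIN1 differed between its features. The feature used had 985, 719 and 437 in shNon and 659, 784 and 999.96 in shASPP2. The 2 features of other RefSeq transcripts of the gene had 0.58 and 1.11 log2, the latter from 40.6 ± 11.9 to 86.8 ± 22.1 (SD, n = 3; limma adjusted p over all features 0.265). The remaining feature had 0.13 log2, with 69.9 ± 52.7 in shNon and 69.4 ± 36.4 in shASPP2 (SD, n = 3). All of these other features were below background on some arrays, and the difference between features was not tested.

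PCDH1, a protocadherin of airway and other epithelia, could not be read. It had 274, 102 and 50.5 in shNon and 193, 263 and 45.4 in shASPP2, a spread of 5.42-fold within shNon and 5.79-fold within shASPP2. Its log2 difference of 0.23 had a 95% interval of -1.66 to 2.13 and turned to -0.34 without shNon array 3.

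**Figure D3:**
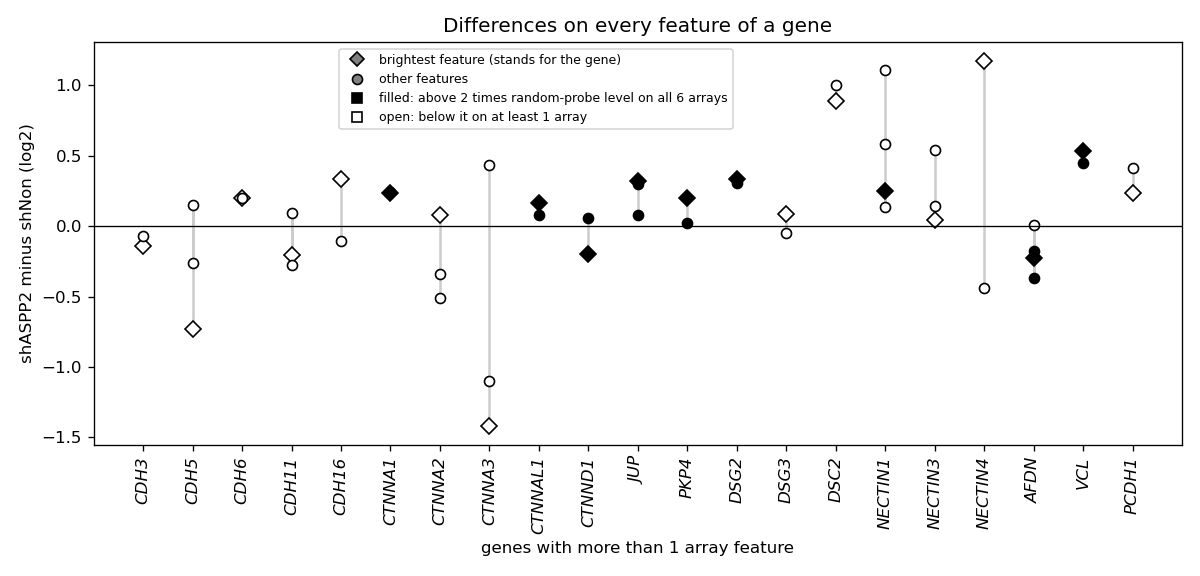
Log2 difference shASPP2 minus shNon on every array feature of the 21 junction genes with more than 1 feature; diamonds are the features that stand for a gene, circles the others, filled where all 6 arrays were above 2 times the random-probe level. Filled symbols of a gene lie on the same side of 0 for 7 of 8 genes, all but CTNND1, while dim features scatter, most for CTNNA3 and NECTIN4.

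Features served as an internal check. Of the 21 genes with several features, 12 had all of them on the same side of 0 and 9 had not. Where at least 2 features were above background on all arrays, 7 of 8 genes had the same sign on these (AFDN, CTNNA1, CTNNAL1, DSG2, JUP, PKP4 and VCL), and CTNND1 had not. Features of a gene share RNA and arrays, so they check the probes and not the biology.

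The wider junction was read from 47 further genes, 17 other cadherins and 30 partners. None passed over all genes in limma, while at an unadjusted p under 0.05 there were 7 higher and 3 lower in shASPP2, beside 5.54% and 5.93% of all genes. The arrays of the groups did not overlap for 11 higher and 5 lower genes, beside 9.3% and 9.52% of all genes. With trend and robust variance 4 passed, CDH1, KRT8, ACTN4 and ACTN1, where 2.14% of all genes did. The median log2 difference was 0.05. The 4 with the smallest p were CDH1, given above, CDH8, KRT8 and ACTN4. KRT8, a keratin of simple epithelia to which desmosomes attach, had 8716, 9522 and 8059 in shNon and 12535, 14604 and 15857 in shASPP2, 0.71 log2 (SE 0.178, limma adjusted p = 0.244, and 0.00207 with trend and robust variance). ACTN4, an actin crosslinker that binds vinculin and alpha-catenin, had 4349.7, 4497 and 3783 against 5938, 7219 and 7957, 0.73 log2 (SE 0.188, limma adjusted p = 0.252, and 0.00375 with trend and robust variance). Over 17 alternatives, adjusted p reached 0.648 for both. In both, as in VCL, every shASPP2 array was above every shNon array. CDH8, a cadherin of the nervous system, had 0.76 log2 at levels near background (34.5 ± 1.62 and 58.8 ± 7.36; SD, n = 3; limma adjusted p = 0.213).

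**Figure D4:**
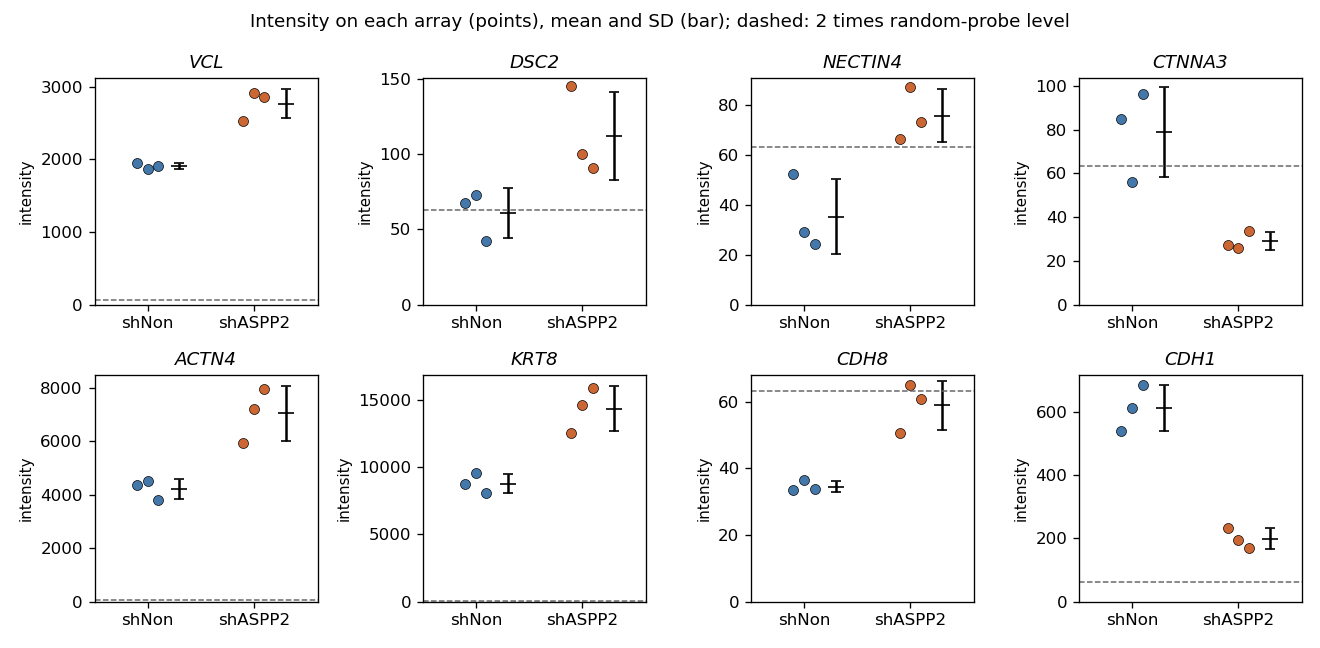
Intensity (y axis, linear, from 0) on each shNon and shASPP2 array (points) with mean and SD (bars, n = 3) for the 4 junction genes with an unadjusted p under 0.05 (VCL, DSC2, NECTIN4, CTNNA3) and the 4 further genes with the smallest p (ACTN4, KRT8, CDH8, CDH1). The groups do not overlap in any panel, and only VCL, ACTN4, KRT8 and CDH1 lie above 2 times the random-probe level (dashed) on all 6 arrays.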

How the data were processed

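Total RNA of 6 HCC-LM3 samples, 3 per group, was measured on NimbleGen 1-colour arrays. The authors deposited linear intensities, 1 for each feature of an array. The submitters' processing notes name RMA, whose version and settings the sources used here do not give. RMA as usually defined equalises arrays and compresses dim features. Of 45033 features, 45031 had 3 probes. The deposited series-wide table differed from these in 0 cells. Feature positions are on hg18. Symbols were updated through a RefSeq table of GRCh38.p14 (38916 features by gene identifier, 78 by accession, 3954 by the file's name, 2085 unnamed).

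Log2 intensities were fitted with limma 3.58.1 in R 4.3.3 (lmFit, eBayes; group only), two-sided, with Benjamini-Hochberg adjustment over 23593 genes and a threshold of 0.05. SE and 95% intervals are limma's. The number of arrays limits the precision. The fit was tested on simulated data. The replicates were treated as separate cultures. Sample titles number them without saying how they were made. The junction genes, marker lists and partner list were chosen with earlier results of these data known. Values per array are given for genes past the threshold, for those with no overlap and a group mean above background, for the 6 brightest, for the smallest p of each remaining role and for the 4 smallest p of the partner list. Alternatives were the value table, 2 scalings, background subtraction, 2 filters, variance options, array weights, the replicate block and 2 uses of features. Leaving out single arrays was counted among them too. The value table holds the same intensities as the main fit, so its result could not differ.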

Additional observations from a re-analysis of the deposited data

How the results depend on the processing

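Of the 33 junction genes, 0 passed under every alternative except trend and robust variance, which called 1, VCL. TP53BP2 passed there too (-1.11 log2, adjusted p = 0.0256). Of all genes, 24 passed in limma, 55 after subtracting the random-probe level, 113 and 268 after leaving out genes below background or below the median level, 506 with trend and robust variance, 40 with the mean of a gene's features and 62 in a fit over all features. Without single arrays 0 to 6 passed: 5 without shNon array 1, 6 without shNon array 3 and 0 without any of the other 4. Samples of the same replicate number showed no clear shared deviation (correlations of deviations of 0.08, -0.10 and -0.14). These correlations cannot tell whether the samples were prepared in pairs. With the replicate block 0 genes passed. The median difference over the junction genes was -0.03 to 0.10 log2 without single arrays. Under every alternative it moved by less than 0.25 log2, the SD within groups of the arrays' median levels over these genes. That limit is wider than the median difference of 0.08 itself, so staying within it says little.

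Signs turned under other settings for 5 genes, and the cause was not tested. PPL had -0.013 with median centring and -0.015 with cyclic loess, NECTIN3 -0.0086 with cyclic loess and -0.021 with array weights, CDH11 0.0024 and PCDH1 -0.16 with array weights, and CTNNA2 -0.26 as the mean of its features. Without single arrays, 13 genes took both signs: CDH3 -0.37 to 0.074, CDH6 -0.041 to 0.54, CDH11 -0.57 to 0.34, CTNNA2 -0.14 to 0.29, PKP2 -0.28 to 0.12, PPL -0.25 to 0.27, EVPL -0.26 to 0.13, DSG3 -0.020 to 0.17, DSC1 -0.43 to 0.22, DSC3 -0.39 to 0.23, NECTIN1 -0.069 to 0.52, NECTIN3 -0.30 to 0.37 and PCDH1 -0.34 to 1.00 log2. None of the 4 genes with an unadjusted p under 0.05 did. Their groups of arrays do not overlap, so leaving out a single array could not turn their sign. After background subtraction 5 genes were at the floor of 8 on all arrays and gave no value.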

Other observations

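Further values from the 47 junction genes are given for genes chosen after their values were seen, so their directions support nothing by themselves. ACTN1, an actin crosslinker related to ACTN4, had 5825.5 ± 601 in shNon and 8534.5 ± 577 in shASPP2 (SD, n = 3), 0.55 log2 with a limma adjusted p of 0.319, and 0.0152 with trend and robust variance. AJUBA, a LIM protein that is recruited to alpha-catenin, had 0.50 log2 (limma adjusted p = 0.369), and ZYX, which gathers at strained actin, 0.41 log2 (limma adjusted p = 0.465). VASP and TJP1, actin-linked too, had -0.01 log2 each. PVR, a nectin-like receptor, had 0.42 log2 (limma adjusted p = 0.401).

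Negative differences included PTPRM, a receptor phosphatase that binds cadherin complexes (-0.52 log2, limma adjusted p = 0.377), and CDH17, the liver-intestine cadherin, at 10291 ± 1067 in shNon and 7563 ± 344 in shASPP2 (SD, n = 3; -0.44 log2, limma adjusted p = 0.394). None of these genes passed over all genes without the trend and robust options, and with them ACTN1 did.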
